A study of Mus musculus with 6 samples.

Results

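*Osr1* and 9 other transcription factors of embryonic mesenchyme were followed in the ductus arteriosus (DA), the fetal artery that joins the pulmonary artery to the aorta. The 10 genes, of which *Osr1*, *Twist1*, and *Meox2* lie on chromosome 12, were taken by symbol from the 23997 genes of the deposited table, and all 10 were present: *Osr1*, *Osr2*, *Tcf21*, *Twist1*, *Twist2*, *Prrx1*, *Prrx2*, *Meox1*, *Meox2*, and *Foxd1*. *Osr1* was chosen by its FPKM values, which were lower in KO than in WT in these same libraries, so its difference is given as a description with no test. The other 9 were taken for their role in mesenchyme.

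RNA-Seq was carried out on whole DA dissected at E17.5 from C57BL/6 mouse embryos, with 3 libraries labelled WT (wild type) and 3 labelled KO (*Prdm6f/f; SM22-Cre*), numbered 0, 1, and 2 in each group. In KO embryos both copies of *Prdm6*, which encodes a histone methyltransferase, are floxed, and Cre-recombinase is driven by the promoter of SM22, a smooth muscle protein. Cells of the DA that do not express Cre, among them endothelial and adventitial cells, were part of every sample, and the labels do not say whether the WT embryos carry either allele. They also do not say whether a library is 1 embryo or a pool, so the spread between libraries may be partly technical. The values are FPKM, fragments per kilobase of transcript scaled to the mapped fragments of the library, which put genes of different length on one scale.

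The factors belong to 4 DNA-binding families. OSR1 and OSR2 are odd-skipped zinc finger proteins, and OSR1 is best known in the intermediate and lateral plate mesoderm, where kidney, heart septum, and connective tissue progenitors need it. TCF21, TWIST1, and TWIST2 are basic helix-loop-helix (bHLH) proteins that mark mesenchymal progenitors and fibroblasts. PRRX1, PRRX2, MEOX1, and MEOX2 are homeodomain proteins of limb, craniofacial, somite, and vascular mesenchyme, and FOXD1 is a forkhead protein of the kidney stroma.

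Depth cannot be read from FPKM alone. Steps between low values gave relative depths of 0.928 to 1.19 times WT1, and upper quartiles were 10.4 to 10.8 FPKM. The steps were searched only in a limited range around WT1, so a large difference in depth could not have been found. Summed FPKM over all genes ran from 412183 in WT1 to 818503 in KO2. Some 0 values may be failed estimates, because each library had a 0 for 34 to 61 of the 3506 genes whose mean FPKM reached 20. The targeted gene *Prdm6* was at 41.7, 48.4, and 19.8 FPKM in WT0, WT1, and WT2 and at 48.6, 27.1, and 15.4 FPKM in KO0, KO1, and KO2. Which part of the gene is floxed is not stated here, so a whole-gene value cannot check the labels. By qRT-PCR, a separate measurement, the paper reports lower *Prdm6* in the DA and aorta of mice with this genotype. Summed heart muscle markers reached 1041 and 1003 FPKM in WT1 and KO2 and 442 FPKM in WT2, against 48.5, 94.2, and 94.3 FPKM in WT0, KO0, and KO1. KO0 carried both *Xist* (81.0 FPKM) and the Y-linked *Ddx3y* (26.4 FPKM), which were looked up as a check of the libraries, so values are also given without these libraries where they bear on a result.

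In WT the order of the genes by mean FPKM was *Osr1*, *Twist1*, *Prrx1*, *Tcf21*, *Twist2*, *Prrx2*, *Meox1*, *Meox2*, *Osr2*, and *Foxd1*. Of the 9 neighbouring pairs in this order, 8 overlapped in range, and the exception was *Osr2* above *Foxd1*. In KO *Prrx1* came first, followed by *Twist1* and *Osr1*, and the break in the order lay between *Osr1* and *Tcf21*, the single pair of neighbours whose ranges did not overlap. *Osr1* was the highest of the 10 genes in WT0 and WT1 and ranked 2 in WT2, whereas in KO0, KO1, and KO2 it ranked 3, 3, and 2. It held 30.9% of the summed FPKM of the 10 genes in WT and 17.3% in KO. The sum of all 10 was 131, 156, and 232 FPKM in WT and 120, 105, and 110 FPKM in KO. Without *Osr1* the sums were 86.4, 102, and 171 FPKM against 103, 84.1, and 90.1 FPKM, which overlap.

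**Figure D1:**
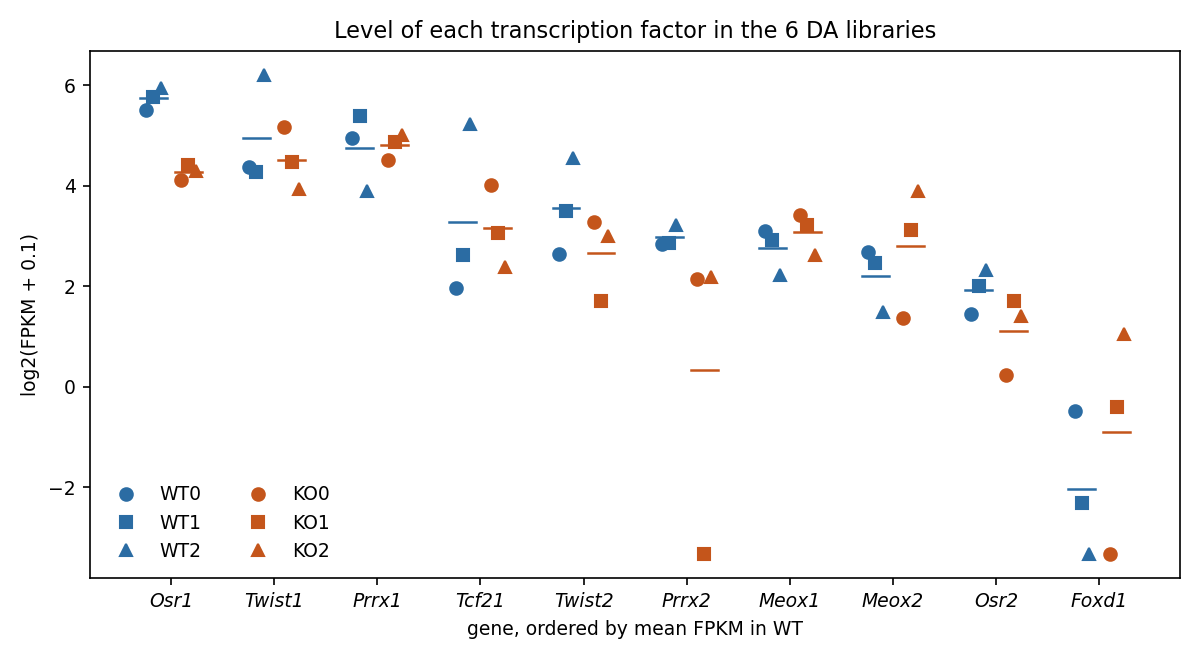
Levels of the 10 transcription factors in the 6 DA libraries, as log2(FPKM + 0.1), with WT libraries in blue, KO libraries in orange, and short lines at the group means. The 3 KO points of *Osr1* lie together below the 3 WT points, WT2 is the highest point for *Twist1*, *Tcf21*, and *Twist2*, and the lowest point of *Prrx2* is KO1, where it was listed at 0.

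*Osr1* (chromosome 12 of GRCm38 from 9570116 to 9581500, plus strand, protein-coding, 4 exon blocks) was at 45.1, 54.0, and 61.4 FPKM in WT0, WT1, and WT2. In KO0, KO1, and KO2 it was at 17.2, 21.3, and 19.5 FPKM. The groups did not overlap, and the lowest WT value was above the highest KO value by more than the range within either group. The means were 53.5 ± 8.13 FPKM (SD, n = 3) in WT and 19.3 ± 2.06 FPKM (SD, n = 3) in KO, or 36.1% of WT. On the log2(FPKM + 0.1) scale the difference, KO minus WT, was -1.46 with a standard error of 0.20 from limma. Among the 12955 genes tested, those averaging 1 FPKM or more, 388 had a lower log2 fold change, and 327 had a larger fall in mean FPKM. The gap, the standard error, and these ranks describe the values by which *Osr1* was chosen and are no test of its fall. The spread of *Osr1* within groups, 0.19 on the log2 scale, was small, with 9.57% of tested genes having a smaller one, although a gene chosen for a clear fall is likely to have a small spread.

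Because the groups of *Osr1* do not overlap, leaving out libraries cannot turn the sign of its difference, and only the size could change. *Osr1* had a log2 fold change of -1.38 without KO0, -1.36 without WT2, and -1.46 without WT1 and KO2, the pair highest in heart muscle markers. The single gene that overlaps *Osr1*, the divergent noncoding *1700022H16Rik* on the minus strand, was listed at 0 in every library. Antisense genes annotated across *Tcf21*, *Twist2*, *Prrx1*, and *Meox1* are not among the genes of the table, and since strand was not stated for the counting, reads from them cannot be told apart from reads of these 4 genes.

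*Osr2* (chromosome 15 from 35296098 to 35303305), the paralog with a known role in palate and joint mesenchyme, was far lower. It was at 2.63, 3.90, and 4.88 FPKM in WT0, WT1, and WT2 and at 1.08, 3.15, and 2.57 FPKM in KO0, KO1, and KO2. KO1 lay above the lowest WT library, WT0, so the groups overlapped. The log2 fold change was -0.80 (standard error 0.62, 95% interval -2.25 to 0.64, adjusted p = 0.716 from limma). Without KO0 it was -0.36, and without KO1 it was -1.09. Within each library *Osr1* exceeded *Osr2* by a factor of 17.2, 13.9, and 12.6 in WT and of 15.9, 6.76, and 7.58 in KO. The log2 ratio was 3.81 ± 0.22 (SD, n = 3) in WT and 3.16 ± 0.63 (SD, n = 3) in KO, and KO0 lay within the WT range.

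The 3 bHLH factors showed another pattern across the libraries, in which WT2 stood out rather than a group. The promoters of *Tcf21*, *Twist1*, and *Twist2* are printed because these related factors were high together in that library. Each runs 5′ to 3′ up to the base before the transcription start, from RefSeq on GRCm38.p6, with TATAAA in capitals. *Tcf21* is chr10:22820175-22820393 on the minus strand, *Twist1* is chr12:33957421-33957670 on the plus strand, and *Twist2* is chr1:91801211-91801460 on the plus strand.
Tcf21: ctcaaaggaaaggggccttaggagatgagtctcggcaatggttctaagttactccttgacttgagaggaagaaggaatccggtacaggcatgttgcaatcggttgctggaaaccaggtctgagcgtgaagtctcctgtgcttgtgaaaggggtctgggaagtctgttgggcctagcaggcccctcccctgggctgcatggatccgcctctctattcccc
Twist1: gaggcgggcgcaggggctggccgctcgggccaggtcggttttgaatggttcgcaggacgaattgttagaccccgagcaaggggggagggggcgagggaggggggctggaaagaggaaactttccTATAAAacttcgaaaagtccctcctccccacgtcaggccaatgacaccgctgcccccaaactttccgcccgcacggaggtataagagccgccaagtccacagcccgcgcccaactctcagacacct
Twist2: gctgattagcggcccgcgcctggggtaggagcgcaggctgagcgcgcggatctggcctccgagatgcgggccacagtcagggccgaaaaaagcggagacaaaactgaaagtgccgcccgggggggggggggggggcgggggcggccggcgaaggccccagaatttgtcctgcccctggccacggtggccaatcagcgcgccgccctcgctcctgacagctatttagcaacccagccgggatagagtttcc
RefSeq promoters were matched for 7 of the 10 genes, and *Osr1*, *Osr2*, and *Meox1* had no entry. The window of *Tcf21* is shorter because the annotated start lies upstream of the RefSeq one. The E-box, the letters CANNTG that bHLH proteins bind and that read alike on both strands, was searched in the 250 bases before each RefSeq start. None of the windows of these 3 genes held it, against 66.2% of 32851 promoters. Those of *Prrx1* and *Prrx2* also lacked it, while *Meox2* and *Foxd1* held 1 each. The window of *Prrx2* lies wholly inside the annotated gene, past its annotated start, so it does not describe the region before that start. TATAAA, searched on both strands, was found in 12.4% of all promoters. Among the 7 genes it was found in *Twist1*, where it began 126 bases before the start, and in *Meox2*, 29 bases before it. The GC content was 52.4% for *Tcf21*, 62.4% for *Twist1*, and 68.8% for *Twist2*, against a median of 52.4% over all promoters. These are matches of letters and not binding sites.

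*Tcf21* (chromosome 10 from 22817281 to 22820174), a factor that epicardium-derived fibroblasts require, was at 3.82, 6.04, and 37.5 FPKM in WT0, WT1, and WT2. It was at 15.9, 8.28, and 5.11 FPKM in KO0, KO1, and KO2. WT2 was the highest library and KO0 the next, and the groups overlapped. Its log2 fold change was -0.12 (standard error 0.84, 95% interval -2.07 to 1.83, adjusted p = 0.971 from limma), and without WT2 it was 0.86 (adjusted p = 0.687 from limma).

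*Twist1* (chromosome 12 from 33957671 to 33959829), which drives epithelial-mesenchymal transition and keeps mesenchyme undifferentiated, was at 20.7, 19.3, and 73.7 FPKM in WT and 35.8, 21.9, and 15.1 FPKM in KO. As for *Tcf21*, WT2 and then KO0 were the highest libraries, and the other 4 lay close together. The log2 fold change was -0.43 (standard error 0.55, 95% interval -1.71 to 0.84, adjusted p = 0.806 from limma), and without WT2 it was 0.19 (adjusted p = 0.895 from limma). The sign of the difference turned without WT2 for both genes, and for *Tcf21* also without KO2, where it was 0.26.

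*Twist2* (chromosome 1 from 91801461 to 91848028), a dermal and connective tissue factor, was at 6.11, 11.1, and 23.5 FPKM in WT and 9.56, 3.15, and 7.87 FPKM in KO. WT2 was again the highest library, the lowest was KO1, and the groups overlapped. The log2 fold change was -0.90 (standard error 0.60, 95% interval -2.29 to 0.48, adjusted p = 0.687 from limma), and it was -0.41 without WT2. *Twist1* exceeded *Twist2* in all 6 libraries, by 1.74 to 3.39 times in WT and by 1.92 to 6.97 times in KO.

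The homeodomain genes were read by paralog pair. *Prrx1* (chromosome 1 from 163245119 to 163313710), a marker of lateral plate mesenchyme, was at 30.6, 41.9, and 14.8 FPKM in WT and 22.7, 29.2, and 32.2 FPKM in KO. The lowest library was WT2, where the bHLH genes were highest. The means were 29.1 ± 13.6 and 28.0 ± 4.84 FPKM (SD, n = 3 each), and KO minus WT was 0.06 on the log2 scale (standard error 0.38, 95% interval -0.82 to 0.93, adjusted p = 0.970 from limma). Without WT2 the sign turned, to -0.37, as it did without KO2, to -0.05.

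*Prrx2* (chromosome 2 from 30834972 to 30881251), which acts with *Prrx1* in limb and face, was at 7.10, 7.14, and 9.22 FPKM in WT0, WT1, and WT2. It was at 4.31 and 4.45 FPKM in KO0 and KO2 and was listed at 0 in KO1. Every KO value lay below every WT value, and the 5 values above 0 kept that order. Since the 0 may be a failed estimate, the fit was repeated without KO1, which gave a log2 fold change of -0.81 (standard error 0.41, adjusted p = 0.881 from limma) against -2.64 (standard error 1.41, adjusted p = 0.647 from limma) with it.

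*Meox1* (chromosome 11 from 101877510 to 101894374), a somite factor, had 8.48, 7.51, and 4.57 FPKM in WT and 10.6, 9.15, and 6.05 FPKM in KO. The log2 fold change was 0.33 (standard error 0.39, 95% interval -0.57 to 1.23, adjusted p = 0.790 from limma). *Meox2* (chromosome 12 from 37108540 to 37179534), which restrains the growth of vascular cells, had 6.28, 5.42, and 2.70 FPKM in WT and 2.47, 8.63, and 14.8 FPKM in KO. The highest and the lowest library were both KO, KO2 and KO0, and the log2 fold change was 0.59 (standard error 0.69, 95% interval -1.02 to 2.19, adjusted p = 0.795 from limma). *Foxd1* (chromosome 13 from 98354242 to 98359305, 1 exon) was near the limit of the table, at 0.613 and 0.102 FPKM in WT0 and WT1, 0.660 and 1.96 FPKM in KO1 and KO2, and listed at 0 in WT2 and KO0. Its mean FPKM was under 1, so it was not tested.

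Of the 9 genes tested, all 9 averaged 1 FPKM or more in both groups. None of the 8 tested beside *Osr1* had an adjusted p under 0.05 in limma, and none an unadjusted one. Over all 12955 genes 1 gene, which is not among the 10, had an adjusted p under 0.05 (0.00772%), and 1073 had an unadjusted p under 0.05 (8.28%, of which 4.97% lower and 3.31% higher in KO). Of the 8, 5 had a negative and 3 a positive log2 fold change, and their median was -0.28, where the median of all tested genes was 0.07 and 44.4% were negative. The KO values of 1 of the 8, *Prrx2*, lay entirely below the WT values (12.5%), as did those of 7.84% of all tested genes, and none lay entirely above, against 8.21%. The standard errors of the 8 ran from 0.38 to 1.41, and the median over all genes was 0.41. The interval of *Prrx1* was the narrowest and that of *Prrx2* the widest, and a miss of the threshold does not show that a gene was the same in both groups.

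**Figure D2:**
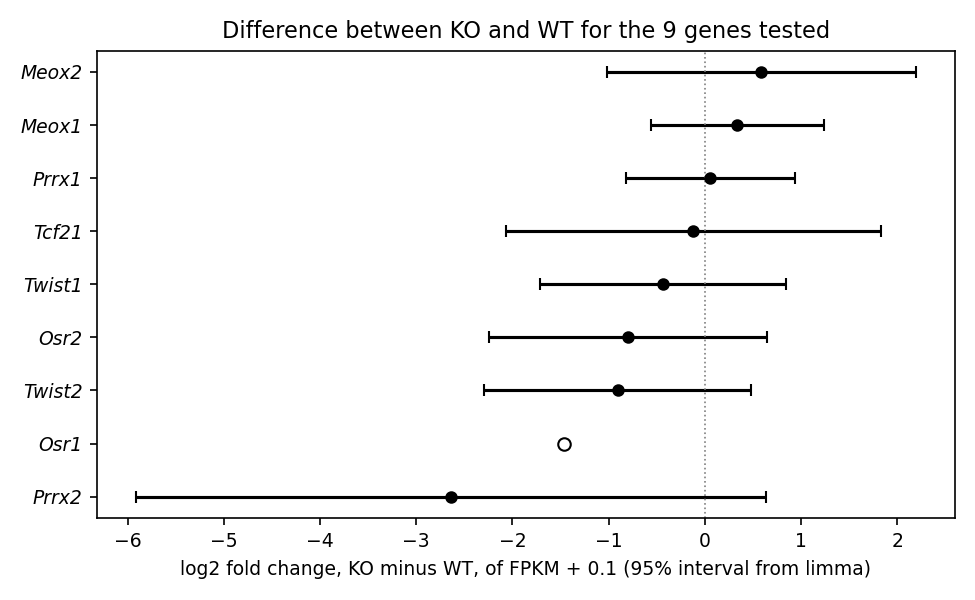
Log2 fold change, KO minus WT, of the 9 genes tested, with 95% intervals from limma as bars and the dotted line at 0. The bars of all 8 genes that carry one cross 0, the value of *Osr1* (-1.46) is an open point without a bar because the gene was chosen for its fall, and the value of *Prrx2* includes the 0 of KO1.

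Paralogs were next compared within libraries, which cancels the scaling of a library. The log2 ratio of *Twist1* to *Twist2* was 1.39 ± 0.52 (SD, n = 3) in WT and 1.86 ± 0.91 (SD, n = 3) in KO (exact permutation test, two-sided, p = 0.4, adjusted p = 0.6 over 3 pairs). For *Meox1* to *Meox2* the ratio was 0.54 ± 0.17 (SD, n = 3) in WT and 0.29 ± 1.68 (SD, n = 3) in KO (exact permutation test, two-sided, p = 0.7, adjusted p = 0.7). The 3 WT libraries of this pair were close together, at FPKM ratios of 1.35, 1.39, and 1.69, whereas KO0, KO1, and KO2 were at 4.30, 1.06, and 0.41, on both sides of WT. *Prrx1* exceeded *Prrx2* by 4.31, 5.86, and 1.60 times in WT and by 5.28 and 7.25 times in KO0 and KO2 (exact permutation test, two-sided, over all 6 libraries, p = 0.2, adjusted p = 0.6). This test cannot give a p under 0.1 with 3 libraries against 3.

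**Figure D3:**
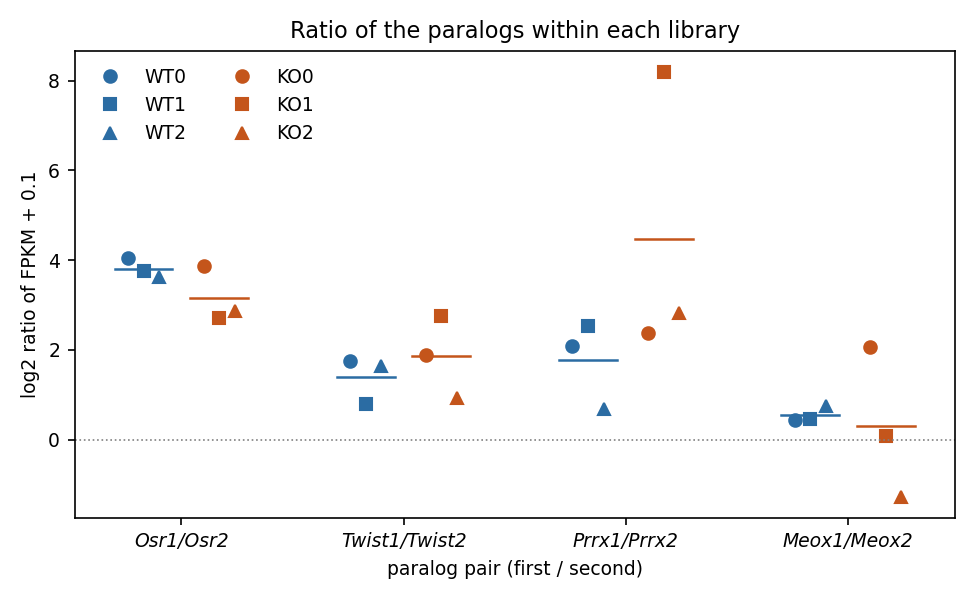
Log2 ratio of FPKM + 0.1 of the first to the second paralog in each library, with WT in blue, KO in orange, and short lines at the group means. *Osr1* exceeds *Osr2* by the widest margin in WT, the 3 WT points of *Meox1*/*Meox2* lie together between KO0 above and KO1 and KO2 below, and the highest point of *Prrx1*/*Prrx2* is KO1, where *Prrx2* was listed at 0.

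Factors that work with or beside the 10 genes were read from 4 lists. Of the bHLH partners and Id inhibitors 8 of 12 were tested, with 5 lower and 3 higher in KO, a median log2 fold change of -0.13 against 0.07 over all genes, and 0 with an adjusted p under 0.05 in limma (2 with an unadjusted one). *Id2*, an inhibitor that holds E proteins away from DNA, was at 155, 107, and 88.6 FPKM in WT and 79.1, 51.4, and 65.8 FPKM in KO, with no overlap (log2 fold change -0.82, standard error 0.25, adjusted p = 0.540 from limma). *Tcf12*, an E protein that pairs with TWIST1 and TCF21, was at 35.5, 34.0, and 22.7 FPKM in WT and 48.4, 43.7, and 46.3 FPKM in KO, with no overlap in the other direction (log2 fold change 0.61, standard error 0.22, adjusted p = 0.561 from limma). The next by p were *Id1* (log2 fold change -0.45) and *Tcf3* (0.11), both with overlap.

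Of the epithelial-mesenchymal transition factors 4 of 5 were tested and all 4 had a positive log2 fold change, with a median of 0.23 that was 0.08 without WT2 and 0.01 with a pseudocount of 1. None had an adjusted p under 0.05 in limma and 1 had an unadjusted one. *Zeb2*, a zinc finger repressor of epithelial genes, was at 45.7, 56.2, and 52.3 FPKM in WT and 59.5, 71.7, and 89.1 FPKM in KO, without overlap (log2 fold change 0.50, standard error 0.20, adjusted p = 0.591 from limma). *Snai1* was listed at 0 in WT2 and was lower in all KO libraries than in WT0 and WT1, so its sign in the fit (log2 fold change 0.43, standard error 1.54) rests on that 0.

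Of 30 other mesenchymal transcription factors 22 were tested, 11 lower and 11 higher, with a median of 0.07, where that of all genes was also 0.07, but without KO0 it was 0.37. None had an adjusted p under 0.05 in limma and 1 had an unadjusted one. That was *Foxf1*, a forkhead factor of lung and gut mesenchyme, at 16.4, 11.9, and 2.05 FPKM in WT and 1.11, 2.01, and 0.811 FPKM in KO (log2 fold change -2.50, standard error 0.85, adjusted p = 0.549 from limma). The groups of *Foxf1* did not overlap, but WT2 stood only just above KO1. *Foxc2* (-0.42), *Nr2f1* (1.57), and *Ebf3* (0.77) overlapped.

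OSR1 acts beside Hedgehog signals and TBX5 in the heart field, so these genes made the fourth list. Of 16 genes 12 were tested, 4 lower and 8 higher, with a median of 0.20, and none had an adjusted or an unadjusted p under 0.05 in limma. Values were higher in KO by 0.75 on the log2 scale for *Dhh*, a ligand made by Schwann and endothelial cells (standard error 0.37, adjusted p = 0.624 from limma), and 1.02 for *Hhip*, a membrane protein that binds Hedgehog ligands (standard error 0.79, adjusted p = 0.717 from limma). The coreceptor *Boc* had -0.28 and the effector *Gli2* -0.10.

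In a bulk sample fewer cells of a type and less RNA per cell cannot be told apart, so markers of the cells that a dissected DA can hold were read beside the 10 genes. The 12 smooth muscle contractile markers summed to 2833 to 6182 FPKM in WT and 991 to 2520 FPKM in KO, which does not overlap. All 12 had a negative log2 fold change, 7 of them with no overlap (7.84% of all tested genes), and 0 had an adjusted p under 0.05 in limma (7 an unadjusted one). None of the 12 was at 0 in any library. The paper, by its own pipeline, counts contractile genes of this list among its differentially expressed genes in the DA of this genotype. The lack of calls here thus differs from the published result, whose figure states a larger n per group than the libraries used here. The 15 fibroblast markers, whose cells are a known source of the 10 factors, summed to 3940 to 7190 FPKM in WT and 3175 to 5927 FPKM in KO, with 11 lower, 4 higher, a median of -0.26, and 0 with an adjusted p under 0.05 in limma (5 with an unadjusted one). With single libraries left out this median lay between -0.43 (without WT0) and -0.02 (without KO0). *Thy1* counts as lower only through a 0 in KO0. It was at 3.20, 4.64, and 2.51 FPKM in WT and at 17.6 and 12.4 FPKM in KO1 and KO2. The defining marker *Pdgfra* was at 45.0, 39.9, and 60.5 FPKM in WT and 42.4, 68.9, and 52.4 FPKM in KO.

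The fibroblast list did not move as one. *Pi16*, a marker of adventitial fibroblasts, was at 38.2, 13.6, and 54.8 FPKM in WT and 7.08 to 10.4 FPKM in KO, without overlap (log2 fold change -1.85, standard error 0.49, adjusted p = 0.486 from limma). *Clec3b* and *Dpt*, expressed in similar cells, had -1.64 and -1.62 with overlap. *Lum*, a collagen-binding proteoglycan, went the other way, at 47.0, 62.4, and 109 FPKM in WT and 131, 172, and 159 FPKM in KO (log2 fold change 1.16, standard error 0.30, adjusted p = 0.480 from limma). *Cd34*, also found on endothelial cells, was at 178, 103, and 169 FPKM in WT and 427, 317, and 166 FPKM in KO, with overlap (log2 fold change 0.95, standard error 0.37, adjusted p = 0.589 from limma). These 5 genes, *Pdgfra*, and *Thy1* fall outside the rule for named genes and were picked with their values known.

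Set against the markers of the same library, *Osr1* gave a different picture for each list. Relative to the mean log2 level of the 15 fibroblast markers it lay at -1.25 ± 0.21 (SD, n = 3) in WT and -2.39 ± 0.48 (SD, n = 3) in KO, a difference of -1.14 without overlap. Relative to the 12 smooth muscle markers it lay at -1.54 ± 0.78 (SD, n = 3) in WT and -1.64 ± 0.53 (SD, n = 3) in KO, a difference of -0.10 with overlap. The difference in *Osr1* was thus about as large as the mean difference of the smooth muscle markers and larger than that of the fibroblast markers, and the part of either cell type in it was not tested. *Osr2* relative to the fibroblast markers also did not overlap (-0.48), while the other 7 tested genes did. *Meox1* relative to the smooth muscle markers was at -4.52 ± 0.37 (SD, n = 3) in WT and -2.83 ± 0.06 (SD, n = 3) in KO, without overlap, and no other gene was without overlap against this list. The smooth muscle markers were themselves lower in KO (median log2 fold change -1.56), which lifts any gene set against them, and *Meox1* by itself overlapped. The share of all tested genes without overlap on these relative scales was not computed, so these separations are descriptions only.

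Other tissues varied between libraries as well. Schwann cell markers summed to 14.9 to 40.3 FPKM in WT and 48.2 to 175 FPKM in KO, and neuron markers to 19.9 to 41.4 FPKM and 43.4 to 85.8 FPKM, neither with overlap. Mesothelial and epicardial markers summed to 48.9, 114, and 251 FPKM in WT and 83.7, 196, and 303 FPKM in KO, so that WT2, high in *Tcf21*, was second to KO2, which was low in it. Macrophage (43.5 to 286 FPKM over the 6 libraries), endothelial (345 to 665), erythroid (3865 to 24371), cartilage (33.6 to 60.0), adipocyte (18.7 to 126), skeletal muscle (15.0 to 75.1), and airway and lung epithelial markers (11.1 to 64.1) overlapped between groups. The part of these tissues in the values of the 10 genes was not tested.

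**Figure D4:**
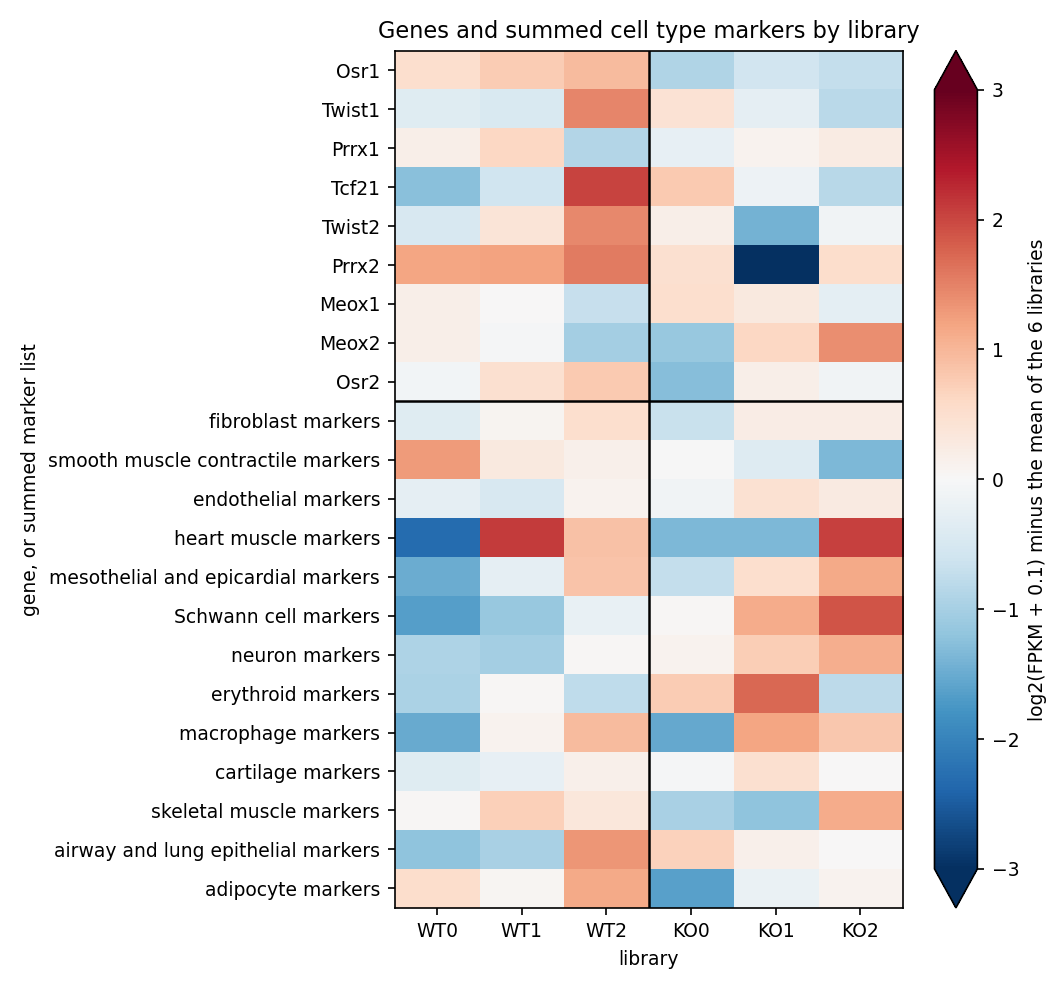
Levels of 9 of the transcription factors and of the summed marker lists in each library, as log2(FPKM + 0.1) minus the mean of the 6 libraries, with red above and blue below that mean and the scale ending at 3. *Osr1* and the smooth muscle markers are higher in WT than in KO, whereas *Twist1* and *Tcf21* are reddest in WT2, and heart muscle markers are highest in WT1 and KO2.

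The genes with the pattern most like *Osr1* over the 6 libraries, by Pearson correlation of log2(FPKM + 0.1) among 12954 other tested genes, were *Zcchc2* (0.99), *Snrpf* (0.99), *Kcne4* (0.98), *Gm12992* (0.98), and *Thumpd1* (0.98). All 5 share the split into WT and KO with *Osr1*, which by itself gives a high correlation. Of these, *Kcne4*, a potassium channel subunit, had the largest log2 difference, at 25.2, 24.0, and 31.6 FPKM in WT and 7.87, 8.17, and 6.71 FPKM in KO. *Snrpf*, a core protein of the spliceosome, was at 72.8, 74.2, and 76.3 FPKM against 44.2, 51.1, and 48.6 FPKM. For *Twist1* the nearest were *5730409E04Rik* (0.99), *Ube2e1* (0.99), *Arhgdia* (0.99), *Cenpn* (0.99), and *Prkar1a* (0.98), which all had their highest value in WT2 and the next in KO0. With 6 libraries such values describe a pattern and no more.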

How the data were processed

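RNA was sequenced from 6 DA samples at E17.5, 3 labelled WT and 3 labelled KO, and groups and replicate numbers came from the sample titles. After trimming, reads were mapped by the authors with TopHat2 (build mm10), and the FPKM values they deposited, 1 per gene and library, came from Cufflinks and Cuffdiff. Versions, annotation, and scaling are not given in the sources used here. FPKM values hold no counts, so count tests, intervals, and detection floors were not used.

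Genes averaging 1 FPKM or more were compared on log2(FPKM + 0.1) with limma 3.58.1 in R 4.3.3 (eBayes with trend, two-sided, Benjamini-Hochberg adjustment over 12955 genes, threshold 0.05), after checks on simulated data. Fold changes on this scale understate the change of low genes where no library is at 0. A single 0 can enlarge or turn them, as for *Prrx2* and *Snai1*. Paralog ratios were compared by two-sided exact permutation tests. Positions came from GENCODE M21 on GRCm38, and promoters from RefSeq. The 10 genes, the lists, and the tests were chosen with earlier results of these data known. Beside the 10 genes, those named are the 2 of each transcription factor list with the smallest p in each direction, *Prdm6*, and the 5 most like *Osr1* and *Twist1*. *Xist* and *Ddx3y* were read as a check of the libraries, and the fibroblast markers named were picked with their values known. Alternatives were a pseudocount of 1, filters at 0.1 and 5 FPKM or none, no trend, median ratio scaling, quantile normalization, the replicate number as a block, and each library left out. The omission of WT1 and KO2, the libraries highest in heart muscle markers, and the levels relative to markers were added after the values were seen. WT2 was kept in that omission.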

Additional observations from a re-analysis of the deposited data

How the results depend on the processing

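Over 15 alternative settings the log2 fold change of *Osr1* ran from -1.58 to -1.36 with each library left out in turn and from -1.46 to -1.39 in the others. Its negative sign follows from the choice of the gene for its fall in these libraries and is no check of that fall. None of the other 8 tested genes reached an adjusted p under 0.05 in limma under any setting. *Osr2* was left out by the filter at 5 FPKM. *Osr2*, *Twist2*, *Prrx2*, *Meox1*, and *Meox2* kept their sign under every setting that gave them a value. Their size moved, and with single libraries left out *Meox2* ran from 0.04 to 1.30 and *Osr2* from -1.09 to -0.36. Leaving out single libraries gave log2 fold changes between -0.77 and 0.86 for *Tcf21*, -0.77 and 0.19 for *Twist1*, and -0.37 and 0.38 for *Prrx1*, and these 3 changed sign without WT2, *Tcf21* and *Prrx1* also without KO2 (0.26 and -0.05). The difference, KO minus WT, in the log2 ratio of *Meox1* to *Meox2* ranged from -1.14 to 0.53 and turned positive without KO2. That of *Prrx1* to *Prrx2*, 2.70, was 0.83 without KO1.

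The number of tested genes of the 10 that were lower in KO without overlap was 2, and between 2 and 4 when single libraries were omitted, reaching 4 without WT0, when *Osr2* and *Twist2* joined *Osr1* and *Prrx2*. *Osr1* is among them by its choice. Groups with fewer libraries separate more easily, and the share over all tested genes was not computed for these settings, so the counts are descriptions only. The number of genes with an adjusted p under 0.05 among all genes was 1. It was 2 when the trend was dropped and 3 without WT1 and KO2, the libraries highest in heart muscle markers. Omitting single libraries gave 1 to 3, with 3 without WT1, KO0, or KO2. None of these genes was among the 10. Over all genes the median moved from 0.07 to 0.04 with quantile normalization, under which the log2 fold change of *Osr2* was -1.20. The median of the bHLH partners and Id inhibitors turned to 0.03 without KO0 or WT1, and that of the other mesenchymal factors was -0.12 with quantile normalization and 0.37 without KO0. The median of the epithelial-mesenchymal transition factors, 0.23, was 0.08 without WT2, 0.02 with the filter at 5 FPKM, 0.01 with a pseudocount of 1, and 0.09 with quantile normalization.

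For libraries with the same number, deviations from the group means correlated at 0.12, -0.08, and -0.01 for numbers 0, 1, and 2. Between libraries with different numbers these correlations ran from -0.12 to 0.14. The paper describes its controls as littermates, and such values cannot show which libraries share a litter or a batch. With the replicate block the number of genes with an adjusted p under 0.05 was 1, and *Osr1* was at -1.46.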
